A study of Danio rerio with 10 samples.

Results

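Earl grey mutant zebrafish larvae were compared with their phenotypically wild-type sibling larvae on day 5 after fertilization. The 6 pools were chosen by their titles, 3 of mutants and 3 of siblings, out of 10 pools in all, and each pool of whole larvae was hybridised to its own Affymetrix zebrafish array. The other 4 pools, 2 of mutants and 2 of siblings, were collected on day 3. Genes of the spliceosome, of photoreceptors and of the exocrine pancreas were set aside in 3 lists, and the other genes on the arrays are described here. The lists do not hold every gene of these systems. The splicing factor gene htatsf1, for instance, stays among the genes described, so their counts are not free of such genes.

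The mutant pools held larvae of the cz3 allele of earl grey (egy), a recessive mutation of the gene now called sart3, in the AB/WIK background. The sibling pools came from the same line and the same kind of cross, since all embryos were bred from pairs of heterozygous adults and kept at 28 ºC. Mutants were told from siblings by their shape, so heterozygous and homozygous wild-type larvae share the sibling pools, and a reduced head and eye was part of what chose the mutants. The labels call the replicates biological, without saying whether they came from separate clutches. They conflict in places: the source name of mutant replicate 3 and of sibling replicate 2 reads day 4 while the age label reads day 5, every description calls its sample wild type, the strain label of sibling replicate 2 of day 3 calls it mutant, and the design text names days 3 and 4 where the treatment protocol names 72 and 120 hours. The titles were followed throughout.

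The SART3 protein binds RNA in the nucleus and recycles spliceosome parts: after splicing it brings the U4 and U6 small nuclear RNAs back together for another round. In zebrafish, widespread trouble with RNA processing is known to raise p53 protein, a transcription factor whose targets include mdm2, its own inhibitor, and genes of cell cycle arrest and apoptosis. By day 5 a larva's retina, brain, liver and gut have normally taken on their differentiated functions, and expression of the genes particular to them is normally rising.

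The mutated gene itself was measured first. The sart3 signal was 104.9, 132.0 and 809.3 in mutant replicates 1, 2 and 3, against 1771.4, 2585.9 and 2035.9 in the siblings. All mutant pools lay below all sibling pools, and mutant replicate 3 lay far above the other mutants. The difference was -2.82 ± 0.46 on a log2 scale (SE of the fit, n = 3 pools a group, adjusted p = 1.29e-03). On day 3 the sart3 signal was 462.2 and 648.4 in mutants, against 2525.7 and 2516.5 in siblings, the second of which is the pool whose strain label calls it mutant. All differences are given as mutants minus siblings, as log2 of the signal plus 64.78, which understates the change of dim genes; p-values are limma's, adjusted by the Benjamini-Hochberg method over all 11626 probe sets tested, and "rose", "fell" and "called" mean an adjusted p under 0.05. The median signal of the day 5 arrays lay between 596.4 and 665.4. The ratio of the 3′ to the 5′ GAPDH control probe sets, a measure of RNA integrity, was 1.31, 1.5 and 1.44 in the mutant pools and 1.41, 1.36 and 1.27 in the sibling pools.

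On day 5, 754 probe sets (6.49%) were higher and 947 (8.15%) lower in mutants. Median centring of the arrays turned that balance, to 928 higher and 782 lower. Over all 7287 genes tested, 560 (7.68%) rose and 577 (7.92%) fell. Outside the 3 lists set aside, 496 of 7079 genes rose (7.01%) and 528 fell (7.46%), with a median difference of 0.55 among those that rose and -0.65 among those that fell. More than 2-fold changes were found in 55 genes that rose (0.777%) and 90 that fell (1.27%). Signals of the mutant and sibling pools did not overlap in 2265 of the 7079 genes (32%), among them 488 of those that rose and 521 of those that fell. Probe sets were tested if their mean signal over all arrays reached 231.9. In 21 genes that rose and 34 that fell, the mean of a day 5 group lay under that limit. Such genes were kept by their signal in other pools. The counts of genes that rose and fell were 310 and 343 without sibling replicate 1 and 287 and 317 without sibling replicate 2, and 346 genes fell without sibling replicate 3. Of the lists set aside, 64 of 154 spliceosome genes rose and 4 fell, 29 of 37 photoreceptor genes fell, and 16 of 17 genes of the exocrine pancreas fell.

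The largest rise was that of bmb (brambleberry), known in zebrafish for nuclear membrane fusion in the early embryo. Its signal was 1167.9, 1372.5 and 786.9 in mutants, against 92.6, 121.8 and 30.9 in siblings. The sibling signals were near the bottom of the scale and well under every mutant pool, and the difference was 3.02 ± 0.28 (adjusted p = 1.67e-05). All these sibling signals lay under the filter limit of 231.9, so bmb was kept in the test by other pools. The La protein gene ssb, whose product holds the 3′ ends of new RNA polymerase III transcripts, had a signal of 8924.3, 10016 and 6520 in mutants and 1812.9, 1885.4 and 1783.9 in siblings. Mutant replicate 3 was the lowest mutant pool but stood well clear of the siblings, whose values lay close together (2.15 ± 0.15, adjusted p = 3.51e-06). The signal of ecd (ecdysoneless) was 2735.8, 2422.9 and 1966.6 in mutants and 476.1, 475.5 and 490.2 in siblings (2.15 ± 0.15).

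Subunits and partners of the RNA polymerases among the 25 largest rises are given next, grouped after their values were seen. The signal of polr2eb, a subunit that RNA polymerases I, II and III share, was 10599.6, 10715.3 and 6926.6 in mutants and 2003.1, 2378.1 and 2426.8 in siblings. The groups were far apart, by 2.00 ± 0.16 (adjusted p = 6.13e-06). The small shared subunit polr2l rose by 1.47 ± 0.14, and gpn2, a GTPase that helps to assemble RNA polymerase II, by 1.64 ± 0.14. A difference of 1.56 ± 0.22 was measured for snapc4, part of the complex that transcribes small nuclear RNA genes, and of 1.54 ± 0.20 for taf1c, a factor of RNA polymerase I. The ATPase gene ruvbl1, which acts in chromatin remodelling and in the assembly of polymerases and small nucleolar particles, had a signal of 7630.4, 8922.6 and 6059.9 in mutants and 1844.8, 1888.7 and 1809.3 in siblings (1.97 ± 0.13). The splicing and elongation factor htatsf1 rose by 1.94 ± 0.20, and the exonuclease eri1, which trims histone mRNA and ribosomal RNA ends, by 1.67 ± 0.21.

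**Figure D1:**
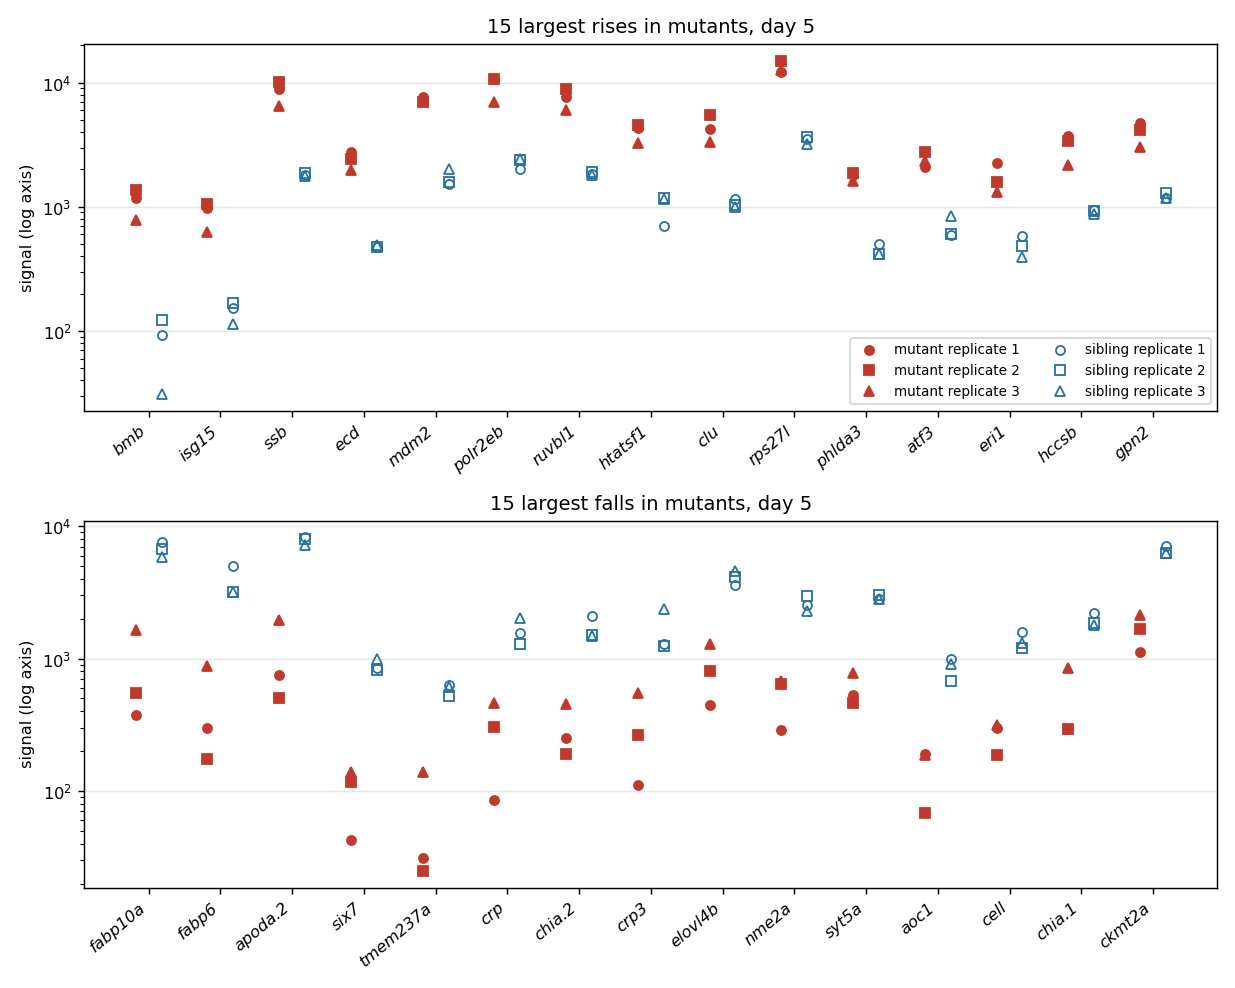
Signal (linear units on a log axis) in each of the 6 day 5 pools for the 15 genes with the largest rises (upper panel) and the 15 with the largest falls (lower panel) outside the 3 lists, clone-named genes left aside, filled symbols for mutants on the left and open symbols for siblings on the right, with 1 symbol shape per replicate number. No mutant pool overlaps the siblings in these genes, by the rule that chose them. Mutant replicate 3 (triangles) is the mutant pool nearest to the siblings in most genes of both panels. Levels of different genes cannot be compared, as each has its own probes.

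Of the p53 target and apoptosis list, 12 of 43 genes tested rose and 2 fell, with a median difference of 0.20 against 0.01 over all genes outside the 3 lists. Of those genes 7.01% rose and 7.46% fell, the shares to set beside the counts of each list below. The 2 falls of the p53 list lay under that share. The signal of mdm2, which encodes the ubiquitin ligase that degrades p53, was 7651.6, 6982.1 and 7276.5 in mutants, against 1525.4, 1589.8 and 2013.5 in siblings. The 3 mutant pools lay close together, replicate 3 included, and the difference was 2.06 ± 0.12 (adjusted p = 1.195e-06). The p53-induced ribosomal protein paralogue rps27l had 12171, 15004 and 12598 in mutants and 3518.8, 3620.9 and 3220.3 in siblings (1.92 ± 0.12). A similar spacing was seen for phlda3, an inhibitor of the survival kinase Akt, at 1803.4, 1873.9 and 1605.5 in mutants and 497.7, 418.6 and 418.0 in siblings (1.84 ± 0.13). The death effector bbc3 (puma) rose by 1.51 ± 0.15 and the initiator caspase gene casp8 by 1.55 ± 0.23. Also higher were ccng1, gadd45aa, sesn3, baxa, plk3, gadd45bb and isg15, a ubiquitin-like modifier better known from interferon responses, whose signal was 972.4, 1054.6 and 621.7 in mutants and 152.1, 167.6 and 113.7 in siblings (2.16 ± 0.21). All sibling signals of casp8 and isg15 lay under the filter limit of 231.9, so both genes were kept in the test by other pools. The gene of the other p53 inhibitor, mdm4, fell by 0.77 ± 0.12 (adjusted p = 1.21e-03). The count of falls was 1 without any single day 5 pool other than mutant replicate 3, and without either sibling pool of day 3, since aifm1 then missed the threshold.

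Immediate-early and inflammatory genes moved in 1 direction, 10 of 34 higher and 0 lower, with a median difference of 0.41. Clusterin (clu), a secreted chaperone, had a signal of 4235.4, 5465.9 and 3320.3 in mutants and 1154.4, 1035.5 and 990.0 in siblings. That put every mutant pool well above every sibling pool (1.94 ± 0.16, adjusted p = 7.37e-06). The stress transcription factor atf3 rose by 1.73 ± 0.24, the cytokine signalling inhibitor socs3b by 1.54 ± 0.15 and its activator stat3 by 1.22 ± 0.15. The remaining genes that rose were irf9, irf1b and b2m, of interferon signalling and antigen presentation, and junbb, fosl2 and jun, which encode AP-1 subunits. The count was 5 without sibling replicate 1.

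The heat shock and unfolded protein list had 12 of 42 genes higher and 0 lower, with a median of 0.11. The collagen chaperone gene serpinh1b had a signal of 5973.8, 7094.3 and 5530.7 in mutants, against 1942.2, 2470.4 and 2453.8 in siblings (1.41 ± 0.14, adjusted p = 3.42e-05). The chaperone gene hsp90aa1.1, which serves myosin folding in zebrafish muscle, had 3711.2, 3448.5 and 3232.1 in mutants and 1503.6, 1353.4 and 1546.6 in siblings (1.203 ± 0.113). In both genes the mutant pools lay close to each other and apart from the siblings. The mitochondrial chaperone genes hspd1, hspe1 and hspa9 and the cytosolic genes hsc70, hspa4a, hspa4b and dnajb1b were among the others that rose. With the replicate numbers as a block, 3 genes of the list fell in place of 0. Of 35 antioxidant and glutathione genes only the iron store gene fth1a rose, while gstt1b and sod1 fell. Both counts lay under the shares over all genes outside the 3 lists, 7.01% higher and 7.46% lower. The count of 2 falls was 1 without mutant replicate 1 or sibling replicate 1 or 2 and 5 without mutant replicate 3. The rise of fth1a was lost without mutant replicate 2 or 3, without sibling replicate 2 or 3 and with the replicate block.

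Proteasome subunits rose in 19 of 43 genes and fell in 0, with a median difference of 0.32, so their changes were small and in 1 direction. The largest was that of psma6a, an alpha-ring subunit, with 4534.4, 6200.4 and 4495.4 in mutants and 3014.7, 2798.2 and 3218.5 in siblings (0.73 ± 0.13, adjusted p = 2.01e-03). The regulatory-particle subunit psmd8 rose by 0.65 ± 0.11 and the core subunit psmb1 by 0.56 ± 0.09. Mutant and sibling pools did not overlap in 32 of the 43 genes, against 2265 of 7079 (32%) over all genes outside the 3 lists. The number called was 10 without mutant replicate 1 or sibling replicate 1, 6 without mutant replicate 2 or sibling replicate 2, and 9 without sibling replicate 3 or with the day 5 arrays alone. Ribosome biogenesis genes of the nucleolus rose in 15 of 78 and fell in 1, ddx21, with a median of 0.25. Their examples are nolc1, a nucleolar phosphoprotein (0.75 ± 0.11), nhp2, of the box H/ACA particles (0.74 ± 0.09), and ddx56, an RNA helicase (0.84 ± 0.17). The count was 9 without sibling replicate 1 and 8 without sibling replicate 2, and the fall of ddx21 was lost without mutant replicate 1 or 2 or sibling replicate 1 or 2.

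**Figure D2:**
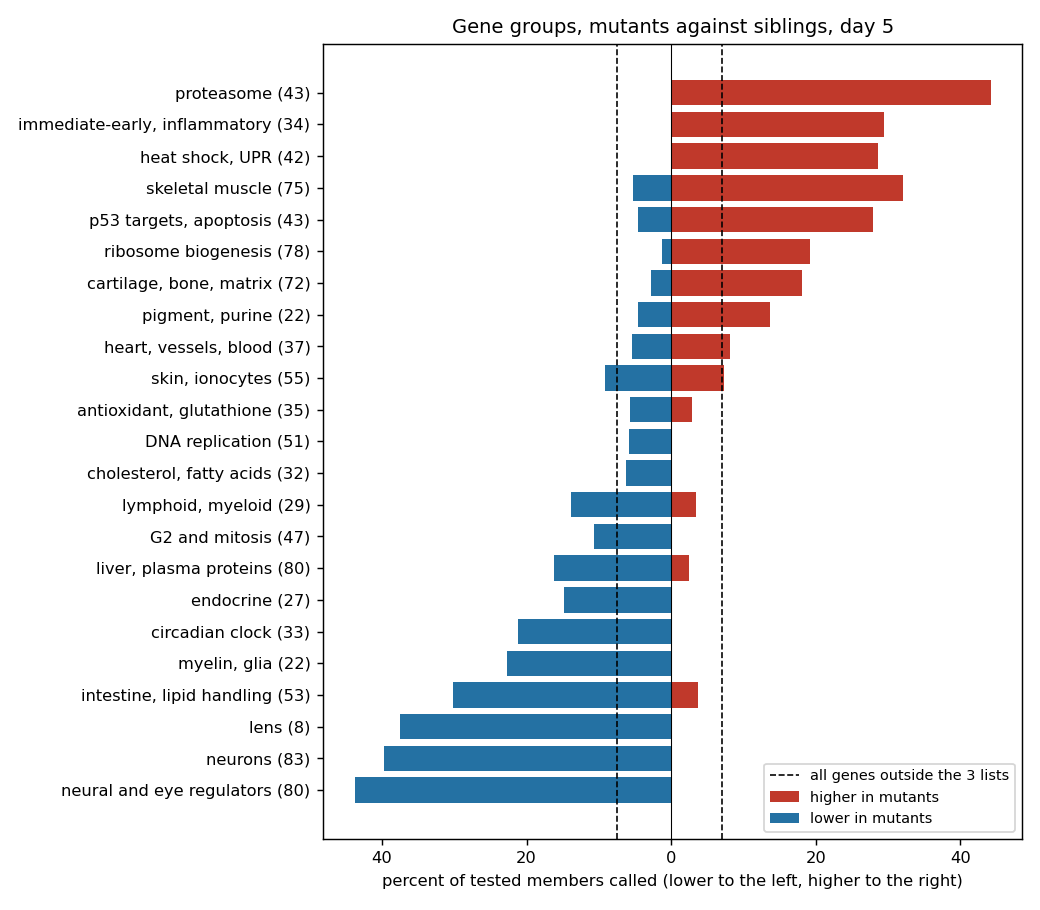
Percent of the tested members of each of 23 gene lists that were called lower (left) or higher (right) in mutants on day 5, with the number tested in parentheses and dashed lines at the shares over all genes outside the 3 lists set aside (7.46% lower and 7.01% higher). Proteasome genes were called higher in 19 of 43, and neural and eye regulators lower in 35 of 80.

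Genes of skeletal muscle and of connective tissue rose more often than they fell. In skeletal muscle 24 of 75 genes rose and 4 fell, with a median of 0.18. Over all genes outside the 3 lists 7.01% rose and 7.46% fell, and the 4 muscle falls lay under that share. Contractile genes changed little in size, as in ldb3a, a Z-disc protein, with 9179, 10953 and 9763.4 in mutants and 6202.5, 7391.5 and 6540.1 in siblings (0.57 ± 0.10, adjusted p = 2.94e-03). The myogenic transcription factor mef2ca rose by 0.76 ± 0.13. Against these, the mitochondrial creatine kinase gene ckmt2a fell, at 1126, 1658 and 2131.5 in mutants and 7081.4, 6224.2 and 6285.6 in siblings (-1.995 ± 0.182), and tropomyosin tpm1 fell by 0.65 ± 0.11. The number of muscle genes that rose was 10 without mutant replicate 2, 13 without sibling replicate 2, 11 without sibling replicate 3 and 13 with the day 5 arrays alone.

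Cartilage, bone and matrix genes rose in 13 of 72 and fell in 2, with a median of 0.18. Over all genes outside the 3 lists 7.01% rose and 7.46% fell, and the 2 falls lay under that share. The matrix protease gene mmp2 had a signal of 20122, 20384 and 14131 in mutants, against 6287.5, 6802.2 and 5895.5 in siblings (1.498 ± 0.130, adjusted p = 1.24e-05). The prolyl hydroxylase gene p4ha2, which acts on collagen, rose by 0.91 ± 0.15, and plod1a, plod3 and serpinh1b, also of collagen synthesis, rose too. The bone regulator runx2a and the cartilage collagen gene col9a1b were among the genes that rose. The count of rises was 7 without mutant replicate 1 or sibling replicate 2, 5 without sibling replicate 1 and 6 with the day 5 arrays alone, and 5 genes fell without mutant replicate 3. In whole-larva pools, fewer cells of a type and less RNA per cell cannot be told apart.

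With clone-named genes left aside, the 3 largest falls were in fabp10a, fabp6 and apoda.2. The liver fatty acid carrier fabp10a had a signal of 374.2, 546.6 and 1636.6 in mutants, against 7581.1, 6739.2 and 5836.3 in siblings. Mutant replicate 3 was the highest of the mutants, though still well under the siblings, and the difference was -3.13 ± 0.36 (adjusted p = 9.78e-05). The ileal bile acid binding gene fabp6 followed, with 298.4, 173.8 and 873.4 in mutants and 4998.7, 3203.2 and 3197.3 in siblings (-3.12 ± 0.38). Next was apoda.2, an apolipoprotein D gene, at 750.3, 501.5 and 1960.1 in mutants and 8244.4, 7992.9 and 7244.4 in siblings (-3.01 ± 0.33). Of 53 intestinal and lipid-handling genes, 16 fell and 2 rose, with a median of -0.13. The shares over all genes outside the 3 lists were 7.46% lower and 7.01% higher, and the 2 rises lay under theirs. Those that fell hold brush-border enzymes and carriers of enterocytes. For instance, fabp2 had 2030.3, 3015.7 and 3554.3 in mutants and 13504, 9331.2 and 8691 in siblings (-1.86 ± 0.22). The intestinal alkaline phosphatase alpi.2 (-1.75 ± 0.22), the disaccharidase si (-1.70 ± 0.27), the diamine oxidase aoc1 (-2.16 ± 0.29) and the chitinases chia.1 and chia.2 fell as well. All mutant signals of si and aoc1 lay under the filter limit of 231.9, so both were kept in the test by other pools. The rises were those of the cathepsin genes ctsla and ctsd, and both were lost without sibling replicate 1, 2 or 3.

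In the liver and plasma protein list 13 of 80 genes fell and 2 rose, with a median of -0.13, and 65 did not pass the test. The shares over all genes outside the 3 lists were 7.46% lower and 7.01% higher, and the 2 rises lay under theirs. Beside fabp10a, the tryptophan oxygenase gene tdo2a had 228.1, 312.4 and 406.6 in mutants and 1021, 704.3 and 973.3 in siblings (-1.35 ± 0.21, adjusted p = 1.03e-03). The plasma antiplasmin gene serpinf2a fell (-1.396 ± 0.156), as did the detoxifying enzyme gene cyp3a65, which gut also expresses (-1.56 ± 0.26). Further falls were in enzymes of purine and amino acid breakdown, among them uox, hgd, hpda and agxta. Outside the list, the acute-phase genes crp and crp3 had differences of -2.43 ± 0.49 and -2.31 ± 0.37, and the glycerol channel aqp9b fell by 1.99 ± 0.18. Within the list, the complement gene c6.2 was 1 of the 2 that rose, by 0.99 ± 0.16. The number of liver genes that fell was 4 when the lowest 50% of probe sets was left out of the test. Members that this filter removes are not counted there, so the smaller number need not mean a lost call.

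Of 83 genes of differentiated neurons, 33 fell and 0 rose, with a median of -0.29, while 7.46% of all genes outside the 3 lists fell. The synaptotagmin gene syt5a, a calcium sensor of vesicle release, had 527.5, 461.2 and 782.8 in mutants, against 2835.8, 3010.2 and 2820.7 in siblings (-2.20 ± 0.19, adjusted p = 1.12e-05). The sibling values lay close together and far above every mutant pool. The G protein subunit gng13b (-1.39 ± 0.13), the neuronal intermediate filament gene inaa (-1.69 ± 0.20) and the membrane glycoprotein gene gpm6bb (-1.23 ± 0.15) fell too. Synaptic and transmitter genes among the falls were snap25b, syt1a, sypb, gria2a, grin1a, gad1b, gad2, glrba and slc32a1. Leaving out any single pool left between 25 and 35 of these genes lower.

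Regulators of neural progenitors, of the forebrain and of the eye fell in 35 of 80 genes and rose in 0, with a median of -0.38, the lowest of the 23 lists. Over all genes outside the 3 lists 7.46% fell. The homeobox gene six7, known in zebrafish for green and blue cone opsin expression, had 42.3, 117.7 and 139.7 in mutants, against 844.5, 823.2 and 988.1 in siblings (-2.58 ± 0.23, adjusted p = 1.49e-05). The bipolar cell regulator vsx1 had 484.6, 836.6 and 674.7 in mutants and 2112.6, 3014.9 and 2620.4 in siblings (-1.87 ± 0.18). In both genes all mutant pools were far under the siblings, and the mutant signals of six7 lay under the filter limit of 231.9. That gene was kept in the test by its signal in other pools. The forebrain gene foxg1b, on none of the lists, had 826.4, 815.5 and 878.7 in mutants and 2965.2, 3201.9 and 3072.1 in siblings. Within each group its values were nearly equal, and the difference was -1.80 ± 0.10 (adjusted p = 1.12e-06). Eye field genes that fell were rx1, rx2, rx3, six3a, six3b, six6b, pax6a and pax6b, and proneural ones were ascl1a, ascl1b, neurod2, neurod4 and neurod6a. The neurogenic gene neurod1, of retina and islet, is counted in the endocrine list and not in this one. Its signal was 1232.1, 1581.1 and 1234.9 in mutants and 3440.2, 3878.6 and 3949.6 in siblings (-1.44 ± 0.12). Between 24 and 33 genes of the neural and eye list fell without any 1 pool. Photoreceptor genes fell beside these, as given above, and their part in the falls of eye regulators was not tested.

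Smaller groups of the nervous system and the eye also had falls and no rises with all pools, while 7.46% of all genes outside the 3 lists fell. Of 22 genes of myelin and glia 5 fell, with a median of -0.06 over the 22. First among them was the myelin basic protein gene mbpa, with 950.6, 772.6 and 762.4 in mutants and 2793.3, 2045.2 and 1854.3 in siblings (-1.35 ± 0.15, adjusted p = 8.35e-05). The glial glutamine synthetase gene glula fell by 0.56 ± 0.10. Another of the 5, tspan2a, lost its call under 14 alternatives, both other scalings among them. The count of 5 was 3 without mutant replicate 1 or sibling replicate 1 or 2, and 1 gene of the list rose without mutant replicate 1. In the lens, 3 of 8 genes tested fell: the chaperone crystallin cryaa (-0.89 ± 0.15), the beaded filament gene bfsp2 (-0.89 ± 0.15) and the beta crystallin cryba4 (-0.39 ± 0.10). The call of cryba4 was lost under 7 alternatives, among them median centring and mutant replicate 1 or 2 or sibling replicate 1 or 2 left out. Among 33 genes of the circadian clock 7 fell, with a median of -0.28, and the nuclear receptor gene rorab led them, at 1882.5, 1940.2 and 2006.5 in mutants and 3641.8, 3968.4 and 3515.6 in siblings (-0.91 ± 0.10). The clock count was 3 without mutant replicate 1, 2 without mutant replicate 2, 1 without sibling replicate 1 or 2 and 3 with the day 5 arrays alone.

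Cell cycle genes changed little over all 3 pools. Of 51 DNA replication genes 3 fell (e2f3, dut and dnmt1) and 0 rose, with a median of -0.10, and of 47 genes of G2 and mitosis 5 fell and 0 rose, with a median of -0.09. Both counts of falls lay near the share over all genes outside the 3 lists, of which 7.46% fell and 7.01% rose. Without mutant replicate 3, 9 DNA replication genes fell, 6 of them not called with all pools. The replicative helicase gene mcm2 had 2190.1, 1747 and 3016.8 in mutant replicates 1, 2 and 3 and 3411.2, 2607.7 and 2922.1 in siblings. Replicate 3 lay among the siblings there, and likewise for gins4, at 314.2, 173.5 and 547.8 in mutants and 469.5, 485.1 and 586.3 in siblings. The topoisomerase gene top2a had 384.1, 350.4 and 1023.9 in mutants and 1340.9, 1134.8 and 1255 in siblings (-1.15 ± 0.29, adjusted p = 0.0182), and its fall was lost without mutant replicate 1 or 2 or sibling replicate 1 or 3. The number of DNA replication genes that fell was 1 without mutant replicate 2 or sibling replicate 1 or 3. That of G2 and mitosis was 2 without mutant replicate 1 or 2 or sibling replicate 1 or 3, and 3 without sibling replicate 2.

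The other lists had few calls, and over all genes outside the 3 lists 7.01% rose and 7.46% fell. Of 27 endocrine genes, 4 fell (neurod1, isl1a, pax6b and nr3c1) and 0 rose, with a median of 0.07. Of these falls, isl1a and pax6b are also counted in the list of neural and eye regulators. The fall of nr3c1 was lost under 14 alternatives, both other scalings and the replicate block among them, and 2 genes rose without sibling replicate 3 and 1 without mutant replicate 1 or 3. The islet and motor neuron regulator isl1a fell by 0.78 ± 0.10. Of 29 lymphoid and myeloid genes 4 fell and 1 rose, and of the falls the T-cell and Wnt regulator lef1 (-0.58 ± 0.10) and the granulin gene grna.1 (-0.92 ± 0.15) kept their call in every fit that held them. The lymphoid and myeloid falls numbered 2 without mutant replicate 2 or sibling replicate 2 or 3. Of 55 skin and ionocyte genes 4 rose and 5 fell, near the shares over all genes. The annexin gene anxa2a (0.86 ± 0.12) and the envoplakin gene evplb (-0.75 ± 0.11) had the largest differences. In pigment and purine synthesis 3 of 22 rose, paics, tspan36 and adsl, and adka fell. In heart, vessels and blood 3 of 37 rose and 2 fell, also near those shares over all genes. In cholesterol and fatty acid synthesis 0 of 32 rose and 2 fell. Skin and ionocyte genes that fell numbered 2 without mutant replicate 1 or 2, 1 without sibling replicate 1 or 2 and 3 without sibling replicate 3 or either sibling pool of day 3, and those that rose numbered 2 without sibling replicate 2 or 3. In pigment and purine synthesis 5 genes rose without mutant replicate 3, and adka lost its call without mutant replicate 1 or sibling replicate 1, 2 or 3. The rise of adsl was lost under 10 alternatives, among them quantile normalization, mutant replicate 2 or 3 left out and any 1 of the day 5 sibling pools left out. In heart, vessels and blood 1 gene rose without sibling replicate 3, and 1 fell without any 1 of mutant replicates 1 and 2 and the sibling pools. The 2 falls in cholesterol and fatty acid synthesis numbered 0 without mutant replicate 1 or any 1 sibling pool, 1 without mutant replicate 2 or either day 3 mutant pool, and 4 without mutant replicate 3. Lists share further called genes, so their counts are not independent. The fall of prox1a is counted in the liver, heart and neural lists, and that of sox2 in the glial and neural lists. The rise of hsp90aa1.1 is counted under heat shock and muscle, that of serpinh1b under heat shock and matrix, and that of actc1a under heart and muscle.

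Mutant replicate 3 departed less from the siblings than the other mutant pools did. For each pool, genes were called without it, and the left-out pool's deviation from the other group was then set against that of its own group's other 2 pools. In the 582 genes called higher without mutant replicate 3, its deviation had a median of 62.8% of that of the other 2 mutants, and in the 655 called lower 57.0%. The same medians were 103.1% and 110.4% for mutant replicate 1 and 97.7% and 93.2% for mutant replicate 2, and those of the sibling pools lay between 89.2% and 95.1%. Replicate 3 lay on the other side of the sibling mean in 29 of the 582 genes and 46 of the 655. That was more often than for the other mutant pools. The same counts were 6 of 344 and 7 of 376 for mutant replicate 1, and 9 of 350 and 5 of 400 for mutant replicate 2. Over all probe sets tested, its Spearman correlation was 0.9574 and 0.9599 with mutant replicates 1 and 2 and 0.9464, 0.9516 and 0.9575 with sibling replicates 1, 2 and 3, while the pairs of another mutant with a sibling lay between 0.9162 and 0.9346. Probes and scaling are common to these arrays, so the correlations only describe them. With mutant replicate 3 left out, the probe sets called rose in number to 2046, against 1701 with all pools.

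**Figure D3:**
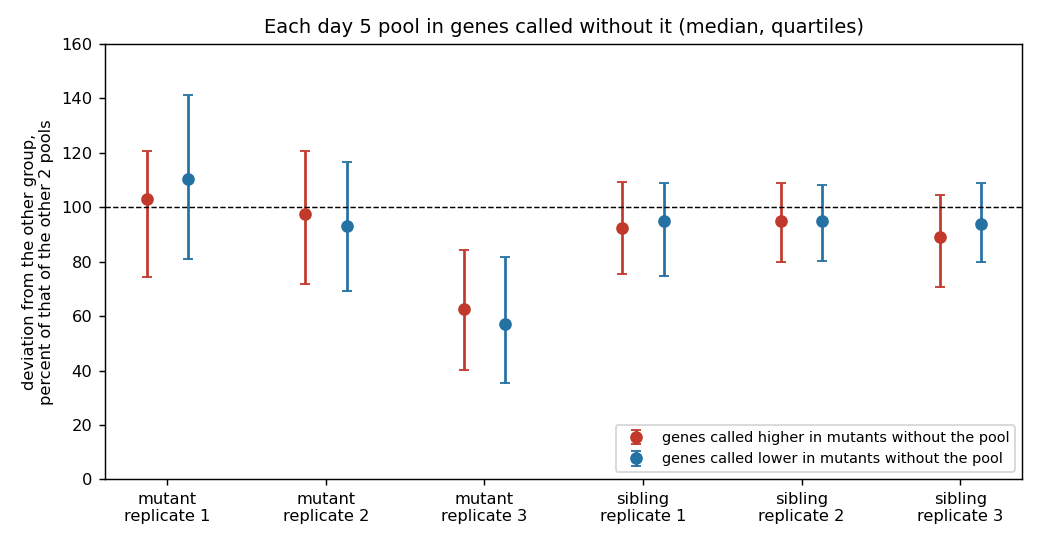
Deviation of each day 5 pool from the other group, as a percent of that of its own group's other 2 pools, in genes outside the 3 lists called without the pool (points are medians and bars the quartiles over genes). Mutant replicate 3 lies at 62.8% and 57.0%, and the other 5 pools lie between 89.2% and 110.4%.

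By gene list, the median deviation of mutant replicate 3 was 90.1% over 13 p53 targets, where genes ranged from 29.1% to 103.0% and mdm2 stood at 99.7%. In neural and eye regulators the median was 81.3%, with a range from 12.3% to 198.5% and with foxg1b at 95.0% and vsx1 at 96.2%. In neurons it was 67.8%, in intestinal genes 66.2%, in proteasome genes 54.4% and in liver genes 48.0%, with a range from -5.8% to 114.5%. In the 9 DNA replication genes it was 13.8%, with a range from -31.3% to 98.0%. These ranges overlap, and differences between the lists were not tested. Too few DNA replication genes were called without mutant replicate 1 or 2 to give those pools a median there. The 3 genes with the largest falls, clone-named genes left aside, stood at 53.7% (fabp10a), 54.6% (fabp6) and 55.4% (apoda.2). The clearest case among genes that rose was hsf1, the master regulator of the heat shock response, with 4266.6, 2690.5 and 958.8 in mutant replicates 1, 2 and 3 and 824.8, 883.0 and 634.7 in siblings (1.46 ± 0.38, adjusted p = 0.0217). Its value in replicate 3 was close to the siblings, and its call was lost without mutant replicate 1 or 2 or sibling replicate 1 or 3. Other genes in which replicate 3 lay well above both other mutants were mis12, nfixb, meltf and chia.1, and those in which it lay well below them were vcanb, rnf4, mhc1zba, eif3jb, rnf146, apoba and vamp4. For example nfixb, a nuclear factor gene, had 51.7, 44.3 and 272.8 in mutants and 348.9, 295.7 and 334.0 in siblings, and apoba, an apolipoprotein B gene, had 6561.5, 6528.2 and 2445.3 in mutants and 6706.8, 6355.1 and 4106.3 in siblings. Sibling replicate 3 was likewise the lowest sibling pool in hsf1, rnf4, mhc1zba, rnf146, apoba and vamp4 and the highest in mis12 and meltf. In these genes the gap therefore follows the replicate number in both groups. The sart3 signal of this pool, given at the start, was also the highest of the mutants, and its source name is 1 of the 2 that read day 4. Without both pools of that source name, 1404 probe sets were called, 628 higher and 776 lower. The part of age in these values was not tested.

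**Figure D4:**
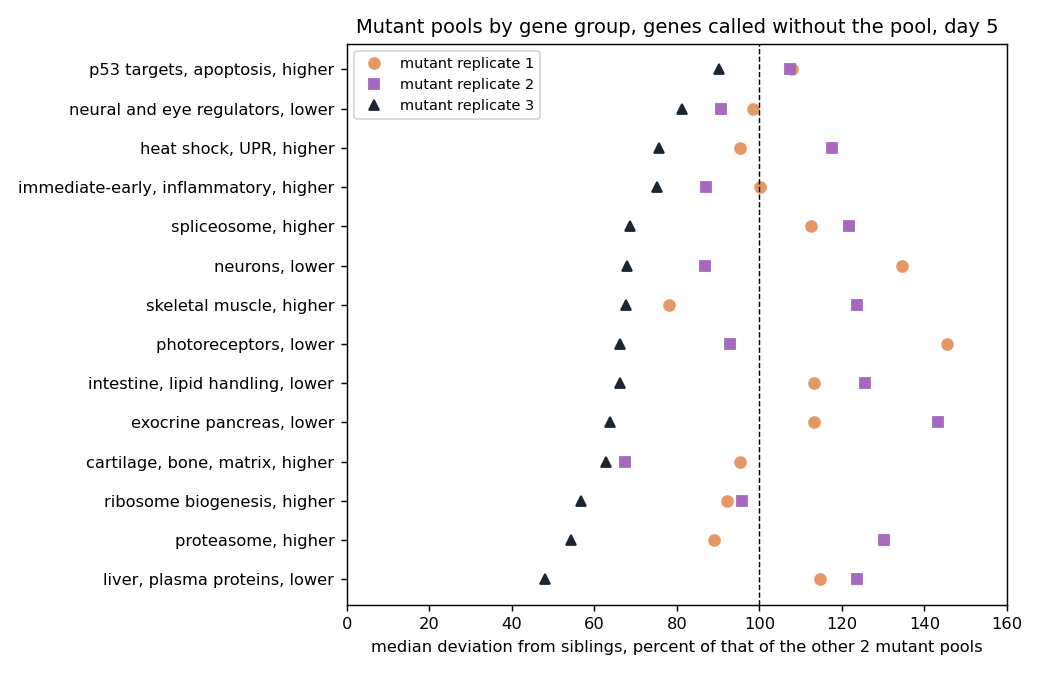
Median deviation of each mutant pool from the siblings in the members of a gene list called without that pool, as a percent of that of the other 2 mutant pools. Mutant replicate 3 (dark triangles) is the lowest of the 3 in each list shown, from 90.1% in p53 targets to 48.0% in liver genes.

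The changes of day 5 were set beside those of day 3, which were measured in other pools. Of the 496 genes that rose on day 5, 452 (91.1%) had a positive difference on day 3, and of the 528 that fell 495 (93.8%) had a negative one, while 46.2% of all 7079 genes were positive. On day 3, 116 genes (1.64%) were called, and 57 of the genes that rose on day 5 and 44 of those that fell were among them, in the same direction. The median difference on day 3 was 0.28 for genes that rose on day 5, against 0.55 on day 5 itself, and -0.35 for those that fell, against -0.65. These genes were chosen by their day 5 values, which by itself enlarges the day 5 medians. The medians therefore cannot show whether the differences grew between the days. Day 3 had 2 pools a group, so fewer genes can pass there.

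A test of the difference between the days was made for every probe set. None of 11626 passed with limma after adjustment (0%), and 771 had an unadjusted p under 0.05 (6.63%). With the replicate numbers as a block 10 passed, clu, socs3b, elovl4b and vsx1 among them. So did crx of the photoreceptor list, at -0.37 on day 3 and -2.12 on day 5. Without mutant replicate 3 of day 5, 51 passed, and 1 passed without mutant replicate 1 or 2 of day 5 or mutant replicate 1 of day 3. The smallest unadjusted p-values are named next for genes outside the 3 lists only, with unnamed probe sets and clone-named genes left aside. Where the difference (mutants minus siblings) was more positive on day 5, they were those of clu, socs3b, vmp1, dnd1 and bcl7ba. For clu the difference was 0.23 on day 3 and 1.94 on day 5, and for socs3b 0.01 and 1.54. The sign turned for dnd1, a germ cell gene, at -0.80 on day 3 and 0.57 on day 5, neither called. It also turned for bcl7ba, at -0.64 on day 3, where it was called (adjusted p = 0.0488), and 0.38 on day 5, where it was not. Where the difference was more negative on day 5, the smallest among the same genes were those of fabp1b.1, rorab, otx2b, lactbl1a and foxg1b. The liver and gut fatty acid carrier fabp1b.1 had a difference of 0.78 on day 3, which did not pass its test, and -0.82 on day 5. For otx2b, of midbrain and retinal development, the values were 0.04 and -0.95. By contrast bmb stood at 2.22 on day 3 and mdm2 at 1.80, both called on each day.

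**Figure D5:**
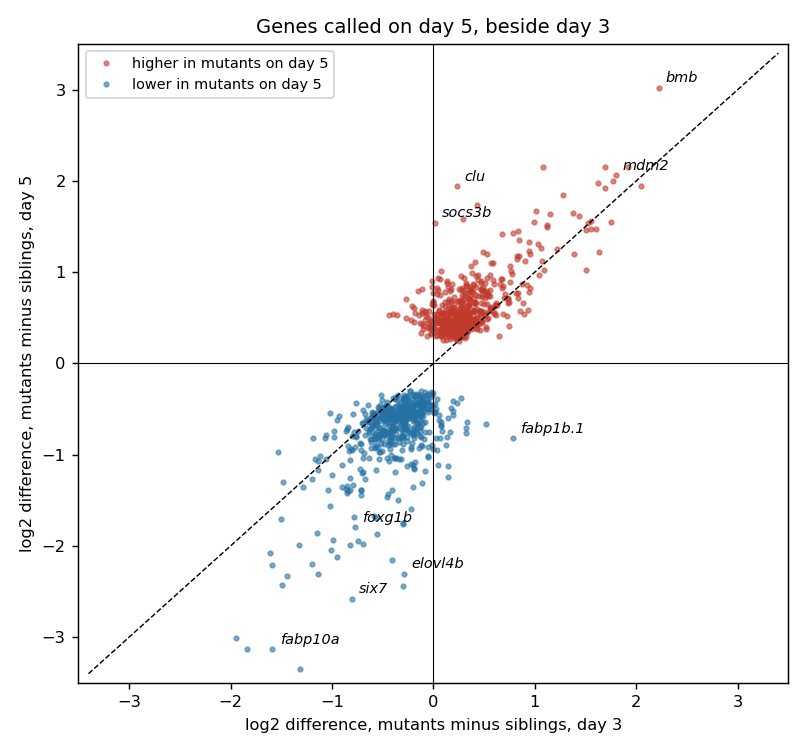
Log2 difference, mutants minus siblings, on day 3 (horizontal) and day 5 (vertical) for the genes outside the 3 lists called on day 5, red for the 496 that rose and blue for the 528 that fell, with a dashed line at equal values. Most points lie on the same side of 0 on both days, and clu and socs3b lie near 0 on day 3.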

How the data were processed

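The deposited table holds 1 intensity for each of 15617 probe sets on 10 arrays, made with MAS5 per the submitters' processing notes, from 7 micrograms of total RNA per labelling per the labels' protocols. The 2% trimmed mean was 1500.4 on every array, so the deposited intensities had been scaled to a common level. Arrays have no read depth, and the number of arrays limits the precision. Leaving out 115 control probe sets, 15502 stayed, of which 10795 carry 1 gene symbol, 135 several and 4572 none, per the platform annotation, and 10711 match RefSeq's gene table. A gene is represented by its probe set with the highest mean.

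The 25% of probe sets with the lowest mean signal over all arrays were left out (limit 231.9), and 10% of the overall median signal was added before log2. A model with 1 mean for each of 4 groups was fitted to all 10 arrays (limma 3.58.1 in R 4.3.3, eBayes with a trend, 6 residual degrees of freedom), with Benjamini-Hochberg adjustment and a threshold of 0.05. The code of the fit was run on simulated data with independent noise in each array. Those data lack the shared deviations of same-numbered day 5 pools given below, so that run cannot vouch for the calls here. Genes were named by size (the 25 largest differences in each direction without overlap of the pools, and up to 4 per list and direction), by the smallest p of the day difference, and by the gap of mutant replicate 3 from the nearer of the other mutants; genes with a clone name only were skipped. Members and lists were chosen with earlier results of these data known, and lists are described by counts and medians, with no test of a list. Deviations of same-numbered day 5 pools from their group means correlated at 0.232, 0.265 and 0.229, and those of day 3 at -0.047, so the numbers pair the day 5 pools by the data and not by any label. P-values measure the spread between these pools, which may be partly technical. Alternatives were other added constants, filters and scalings, the day 5 arrays alone, the replicate block, array weights, no trend, and each pool left out.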

Additional observations from a re-analysis of the deposited data

How the results depend on the processing

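Leaving out 1 pool in turn gave between 1048 and 2046 probe sets called on day 5, between 468 and 899 of them higher and between 580 and 1147 lower; between 287 and 582 genes outside the 3 lists rose and between 317 and 655 fell. The probe sets whose difference changed between the days numbered 0 to 51 in these fits. They numbered 8 with 50% of the median added, 3 with the lowest 50% left out, 10 with the replicate block, 6 with array weights and 27 without both day 5 pools whose source name reads day 4; the cause was not tested. The replicate block gave 1849 probe sets called on day 5, 819 higher and 1030 lower. The share of higher calls was 44.3%, against 49.7% after quantile normalization and 54.3% after median centring, which put the median difference over all probe sets at 0.020 and 0.035, against -0.009. Of 143 named genes called on day 5, 102 kept the call under each alternative whose filter kept them and 41 lost it under at least 1, 6 of them with the block and 8 without mutant replicate 3. No difference of these genes changed sign in 2976 recomputed values. The genes were named for passing the test, many of them also for pools that do not overlap. A change of sign was therefore hardly possible, and its absence says little. With 3 pools a group, small changes in dim probe sets cannot be resolved.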

Other observations

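Further families were picked out by gene symbol after their values were seen, so their counts are descriptions only. Over all genes outside the 3 lists, 7.01% rose and 7.46% fell. Of 8 RNA polymerase II subunit genes tested, 4 rose (polr2eb, polr2l, polr2g and polr2i), and the gene of the largest subunit, polr2a, fell. The signal of polr2a was 1992.9, 2757.0 and 3059.9 in mutants and 4042.0, 4359.0 and 4565.2 in siblings (-0.74 ± 0.14, adjusted p = 3.9e-03, limma). Cytosolic aminoacyl-tRNA synthetases rose in 5 of 16 and fell in 0, with a median of 0.22. Mitochondrial ribosomal proteins rose in 7 of 59 and fell in 0, with a median of 0.17. Subunits of the COPI coat, which returns vesicles to the endoplasmic reticulum, rose in 4 of 9, with a median of 0.27. Mitochondrial import proteins rose in 6 of 17, led by timm50 (0.97 ± 0.12).

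High-mobility-group chromatin proteins fell in 5 of 13 and rose in 0, each by less than 0.50. Glycolytic enzymes fell in 9 of 27 and rose in 1, with a median of 0.02 over the 27. The gene that rose was the muscle form pgam2, which stood at 18779.0, 19328.4 and 17612.7 in mutants and 13682.0, 12125.3 and 13716.2 in siblings (0.49 ± 0.09). Those that fell include tpi1a, with 864.2, 892.9 and 875.2 in mutants and 1780.6, 1695.4 and 2520.1 in siblings (-1.11 ± 0.16), and ldhbb (-1.35 ± 0.25). The brain form of aldolase, aldoca, fell by 0.72 ± 0.17. Of the POU class 3 factors, which act in neural progenitors, 3 of 4 fell (pou3f1, pou3f2b and pou3f3b).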
